A study of Mus musculus with 6 samples.

Results

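Hprt and Gusb, the genes of a purine salvage enzyme and of a lysosomal enzyme, were each measured by 1 reference probe in the hippocampus of juvenile mice. The members were the non-control reference probes whose accession belonged to either gene, and both were found, among 15 such reference probes and 60915 probes in all. All arrays carried RNA from the hippocampus of C57BL/6 offspring on postnatal day 20. The 3 vehicle arrays came from offspring whose dams drank 1% saccharin, and the 3 nicotine arrays from offspring whose dams drank nicotine at 200 μg/ml, which according to the methods was also given in 1% saccharin, from before mating until weaning. Pups were therefore exposed through the dam. The sources used here do not say whether the arrays of a group came from different litters, so p-values rest on the spread between arrays. In limma, a linear model over all probes, the spread of other probes enters too. The labels give no sex for single arrays. The tissue could not be checked against its marker genes, because the files name the genes of reference probes only.

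Hprt encodes hypoxanthine phosphoribosyltransferase, which returns hypoxanthine and guanine to the nucleotide pool instead of letting them be degraded. The gene is X-linked, its enzyme is highly active in brain, and its loss in people causes Lesch-Nyhan disease. Gusb encodes beta-glucuronidase, a lysosomal hydrolase that removes glucuronic acid from glycosaminoglycans, and its loss causes the storage disease mucopolysaccharidosis type VII. Both genes are often taken as reference genes in expression assays.

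In the RefSeq annotation of GRCm38.p6, Hprt is protein coding and lies on the plus strand at chrX:52988078-53021660, with 1 transcript listed. Gusb is protein coding and lies on the minus strand at chr5:129989011-130003049, with 6 transcripts listed, 4 of them curated. Which exon or UTR each probe covers is not known here. The promoters of both genes are shown, from 250 bases before to 50 bases after the start, because they show how different the starts of the transcripts are; the arrays measured RNA and not these regions. Capitals mark GGGCGG, the core of the GC box, searched on both strands. The Hprt promoter is at chrX:52987828-52988127 on the plus strand, the Gusb promoter at chr5:130003000-130003299 on the minus strand.
Hprt: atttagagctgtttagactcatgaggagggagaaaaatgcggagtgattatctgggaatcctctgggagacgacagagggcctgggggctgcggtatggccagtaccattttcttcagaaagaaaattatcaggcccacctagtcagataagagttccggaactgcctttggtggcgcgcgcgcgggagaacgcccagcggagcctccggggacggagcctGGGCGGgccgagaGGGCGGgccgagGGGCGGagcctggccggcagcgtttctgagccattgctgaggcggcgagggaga
Gusb: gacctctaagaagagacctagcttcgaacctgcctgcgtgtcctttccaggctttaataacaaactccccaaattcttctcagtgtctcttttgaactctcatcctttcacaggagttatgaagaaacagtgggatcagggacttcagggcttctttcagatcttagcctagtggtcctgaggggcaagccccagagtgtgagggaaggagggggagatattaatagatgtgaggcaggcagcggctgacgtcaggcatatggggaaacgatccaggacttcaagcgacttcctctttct
The Hprt sequence held 22 CpG dinucleotides and 3 copies of GGGCGG, with 61.0% G and C. The Gusb sequence held 6 CpG dinucleotides and no copy of that motif, with 49.7% G and C. Of the 32851 promoters of this length in the table, 35.7% held at least 1 copy, the median number of CpG was 7, and 21.5% had more CpG than Hprt against 52.1% that had more than Gusb. TATAAA, searched in the same way, was found in neither sequence and in 13.6% of all promoters.

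Each probe was printed as 20 spots on every array. All 20 spots of both genes were well above background on all 6 arrays, and none was saturated. The median spot of Hprt was 854 to 2419 times its local background over the arrays, and that of Gusb was 19.6 to 49.6 times. Spots marked as outliers by the scanner software were left out, 0 to 4 per array for each gene. Signals are given as log2 relative to the 75th percentile of the array, so a value of 1 is a signal 2-fold above that percentile. Levels of different probes cannot be set against each other, since probes differ in how well they bind.

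Vehicle replicates 1 to 3 gave log2 signals of 6.84, 7.0 and 6.93 for Hprt. Nicotine replicates 1 to 3 gave 6.79, 6.71 and 6.92. The lowest arrays were thus nicotine replicates 2 and 1 and the highest was vehicle replicate 2, and the groups overlapped, since nicotine replicate 3 lay above vehicle replicate 1. The SD between spots was 0.0118 to 0.0630 within the arrays. The signal of Hprt was brighter than that of 98.81% to 98.95% of all probes on every array, and its rank ran from 639 in nicotine replicate 3 to 722 in nicotine replicate 2 among the 60892 to 60908 probes ranked on an array.

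For Gusb the log2 signals were 1.19, 1.04 and 1.53 in vehicle replicates 1 to 3. They were 1.73, 1.33 and 1.27 in nicotine replicates 1 to 3. The highest arrays, nicotine replicate 1 and vehicle replicate 3, were 1 of each group and shared a slide, and vehicle replicate 2 was the lowest. The groups overlapped in these values as well. The SD between spots was 0.0346 to 0.0810 within the arrays. The signal of Gusb was brighter than that of 82.0% to 85.6% of all probes, with ranks from 8755 in nicotine replicate 1 to 10971 in vehicle replicate 2.

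**Figure D1:**
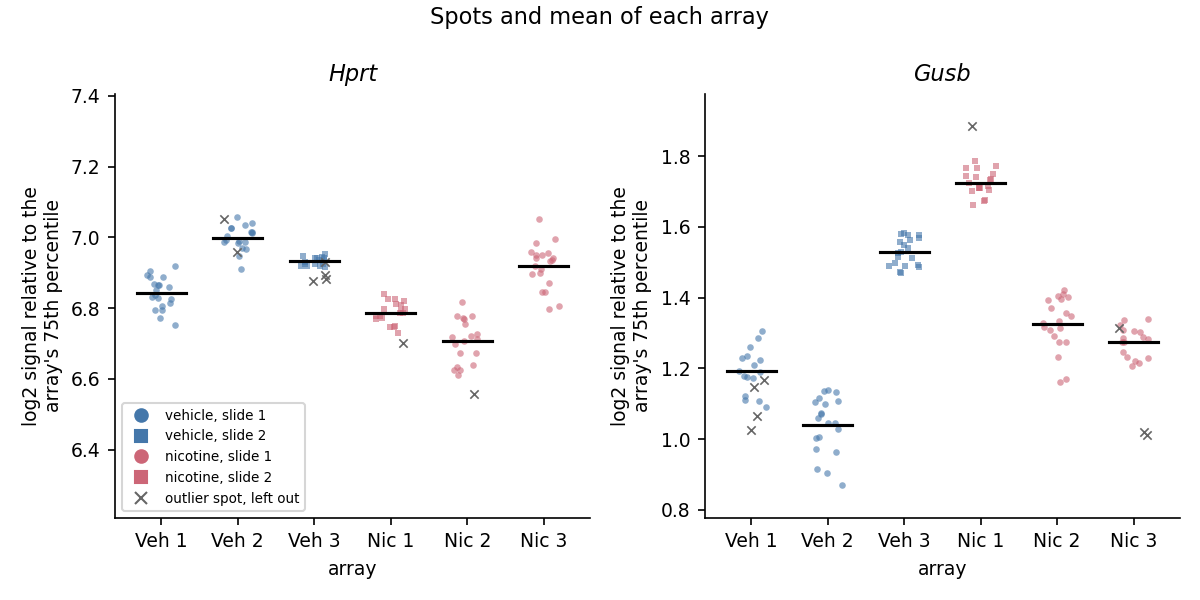
Log2 signal relative to the 75th percentile of the array (y axis) of single spots of Hprt and Gusb on the 3 vehicle (Veh) and 3 nicotine (Nic) arrays (x axis), with circles for slide 1, squares for slide 2, crosses for outlier spots that were left out, and a black line for the mean of the spots used. The Hprt means lie between 6.71 and 7.0, and for Gusb both slide 2 arrays, at 1.53 and 1.73, lie above the 4 arrays of slide 1.

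The comparison of nicotine with vehicle offspring asks whether maternal nicotine altered the transcript. The mean log2 signal of Hprt was 6.92 ± 0.08 (SD, n = 3) for the vehicle group and 6.80 ± 0.11 (SD, n = 3) for the nicotine group, and nicotine minus vehicle was -0.12. This is a signal of 0.920 times the vehicle level. The difference was slightly larger than the SD of either group, but the groups overlapped and the test did not pass (two-sided p = 0.2, exact permutation test). Of the 9 pairs of 1 nicotine and 1 vehicle array, the nicotine array was higher in 1. The difference was -0.07 without nicotine replicate 2 and -0.02 with quantile normalization or on the authors' processed values, and its direction turned relative to Gapdh, at 0.053. For Gusb the means were 1.25 ± 0.25 (SD, n = 3) for the vehicle group and 1.44 ± 0.25 (SD, n = 3) for the nicotine group, so that the nicotine group was 0.19 higher, or 1.14-fold. This was smaller than the SD of either group (two-sided p = 0.4, exact permutation test), and the nicotine array was higher in 7 of the 9 pairs. Single arrays moved this value: it was 0.05 without nicotine replicate 1, 0.08 without vehicle replicate 2 and 0.33 without vehicle replicate 3. With 3 arrays against 3 this test cannot give a p below 0.1.

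In limma over 30233 probes, those that either group had well above background throughout, neither gene passed an adjusted p under 0.05 (Benjamini-Hochberg adjusted p = 1.00 for both), a threshold that 0.0265% of all tested probes passed. Neither had an unadjusted p under 0.05 in limma, as 3.39% of the probes did, nor by the methods' own test. In limma the 95% interval of the difference ran from -0.59 to 0.35 for Hprt, which is 0.664 to 1.28 times the vehicle level. For Gusb it ran from -0.38 to 0.76, which is 0.766 to 1.69 times. A 1.5-fold fall, at the fold threshold of the methods, lay just inside the interval of Hprt, and a 1.5-fold rise inside that of Gusb. A 1.5-fold rise lay outside the interval of Hprt, and a 1.5-fold fall outside that of Gusb. Hprt relative to Gapdh, Gusb without nicotine replicate 1, and both genes with a replicate block or without normalization between arrays gave intervals that did reach these. In bulk tissue, fewer cells that hold a transcript and less of it per cell cannot be told apart.

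The 6 arrays lay on 2 slides that were scanned separately, and both slides held both groups. Vehicle replicate 3 and nicotine replicate 1 were on slide 2, where the 75th percentile of the signal was 147.6 and 149.96, against 291 to 345 on slide 1. Within slide 1 the difference of Hprt between nicotine and vehicle offspring was -0.11, with 2 arrays per group, and within slide 2 it was -0.15, with 1 array per group. For Gusb the difference was 0.18 within slide 1 and 0.20 within slide 2. On both slides every nicotine array was above every vehicle array for Gusb. This held in 4 of 4 pairs on slide 1 and in the single pair on slide 2. The share of all tested probes with such a separation was not counted. On each slide the nicotine arrays also lay at the later positions, so position and group cannot be told apart there. An exact permutation test within slides gave a two-sided p of 0.333 for Hprt and 0.167 for Gusb, the latter being the smallest this layout allows. With slide as a block in limma, neither gene passed (adjusted p = 0.746 for Hprt and 0.608 for Gusb), while 0.0628% of all tested probes did. At an unadjusted p under 0.05 in this fit neither gene passed, against 10.4% of the probes. The intervals of this fit were narrower, 0.723 to 1.17 times the vehicle level for Hprt and 0.908 to 1.43 times for Gusb. A 1.5-fold change in either direction lay outside both, but this depended on the fit: of 25 fits with an interval, the interval held no such change in 12 for Hprt and in 4 for Gusb. The difference of the nicotine effect between the slides was -0.04 for Hprt, with a 95% interval of -1.01 to 0.93, and 0.01 for Gusb, with an interval of -0.93 to 0.95 (adjusted p = 1.00 in limma for both). Slide 2 held 1 array per group, so this fit takes its spread from slide 1 alone, and intervals this wide do not show that the effect was alike on both slides.

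As deposited, the signal of Hprt differed 2.46-fold between its brightest and its dimmest array, and 1.22-fold after scaling to the 75th percentile. For Gusb the same ratios were 2.03-fold and 1.61-fold. On slide 2 the log2 signal of Hprt relative to the 75th percentile was 0.01 below that on slide 1 (adjusted p = 0.975 in limma with group in the model). That of Gusb was 0.42 higher on slide 2, or 1.34-fold (adjusted p = 0.0737 in limma), but 0.72 lower without normalization between arrays (adjusted p = 0.00981 in limma), where 76.7% of all tested probes passed. Normexp background correction was run with an offset of 50 added to every signal. The slide difference was then -0.27 for Hprt (adjusted p = 0.129 in limma) and 0.23 for Gusb (adjusted p = 0.165 in limma). Which gene differed more between the slides thus depended on this setting, and its correction and offset were not tested apart. Without vehicle replicate 2 the relative difference of Gusb was 0.39 and passed the threshold (adjusted p = 0.0271 in limma), as did 49.9% of all tested probes in that fit of 5 arrays. With all 6 arrays, 27.3% of the tested probes differed between the slides at an adjusted p under 0.05. Each slide 2 group was 1 array, so the slide and these offspring cannot be told apart.

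**Figure D2:**
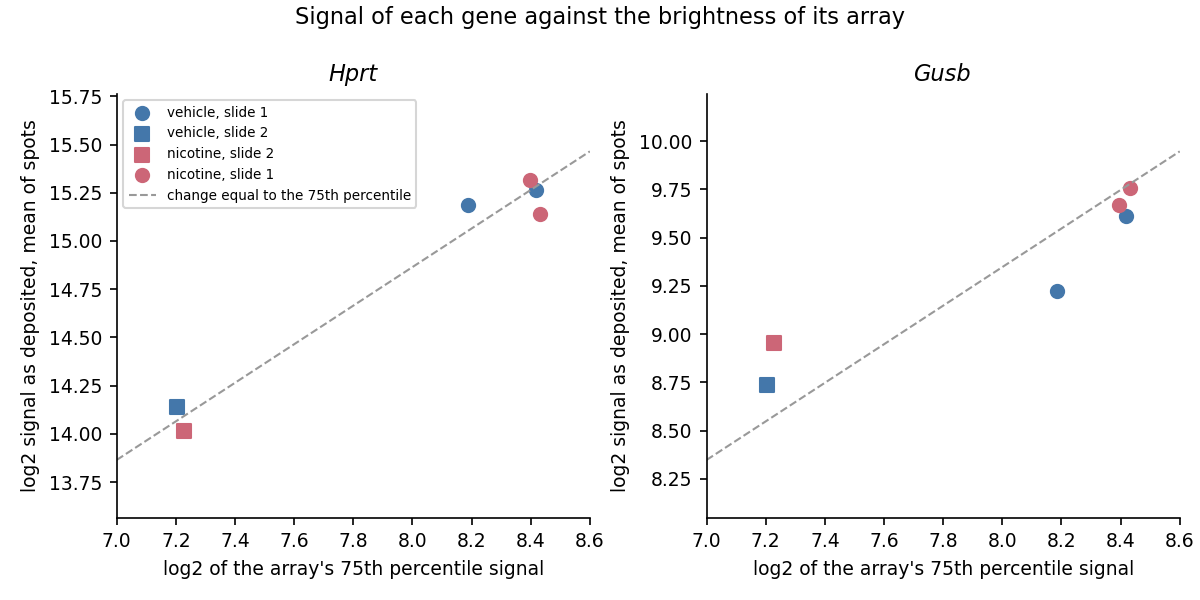
Log2 signal as deposited (y axis, mean of the spots used) against the log2 of the 75th percentile of the array (x axis) for Hprt and Gusb, with 1 point per array, blue for vehicle, red for nicotine, circles for slide 1 and squares for slide 2; the dashed line has a slope of 1 and passes through the mean. The Hprt points lie close to the line, whereas for Gusb both slide 2 arrays lie above it and the 4 arrays of slide 1 below it, vehicle replicate 2 the furthest.

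The spots show the repeatability of printing and scanning within 1 hybridization, which leaves out the error of labelling, hybridization and slide. Over all spots, outliers included, the SD between spots of an array was 0.048 for Hprt and 0.070 for Gusb, and the SD between array means was 0.11 and 0.25. Of the variance over the 120 spots, the array held 81.9% for Hprt and 91.8% for Gusb, and the place of the spot on the array held 4.12% and 1.84%. The 20 spots are repeats of 1 hybridization and were counted as 1 value.

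The SD over the 6 arrays was 0.11 for Hprt, and 1.74% of the 30197 tested probes with a value on every array had a smaller SD. For Gusb it was 0.24, with 22.9% of probes below it, and the median of all these probes was 0.36. Among the 14 reference probes tested, Hprt had the second smallest SD and Gusb was at place 10, with the SDs running from 0.07 to 0.68. This order describes these 6 arrays under this scaling and carries no test. Relative to Gapdh, which the methods used as the qPCR reference, the SD over the arrays was 0.17 for Hprt and 0.31 for Gusb. On the authors' processed values it was 0.066 and 0.25.

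**Figure D3:**
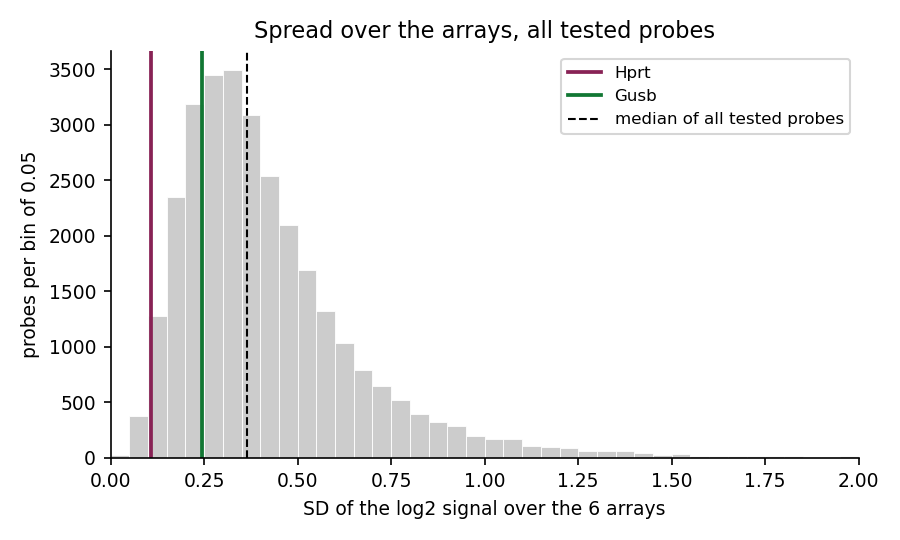
Number of tested probes (y axis, bins of 0.05) by the SD of their log2 signal over the 6 arrays (x axis), with the SD of Hprt (purple line), of Gusb (green line) and the median of all tested probes (dashed line); 42 probes lie beyond the right edge. Hprt, at 0.11, lies near the lower end and Gusb, at 0.24, below the median of 0.36.

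The scaling bears on differences of this size. Relative to Gapdh the difference between nicotine and vehicle offspring was 0.053 for Hprt, so its direction turned, and 0.36 for Gusb. Relative to the mean of the other 13 reference probes tested it was -0.08 for Hprt and 0.25 for Gusb, and on the authors' processed values -0.02 and 0.21. Those processed values were 14.87, 14.79 and 14.89 for Hprt in vehicle replicates 1 to 3 and 14.79, 14.78 and 14.93 in nicotine replicates 1 to 3, so the highest array was there a nicotine array. For Gusb they were 9.15, 9.0 and 9.49 in vehicle replicates and 9.69, 9.33 and 9.24 in nicotine replicates, in the same order of arrays as under the 75th percentile. In none of these did either gene pass an adjusted p under 0.05 in limma. Among the reference probes tested, 5 were higher and 9 lower in nicotine offspring, with differences from -0.56 to 0.24 and a median of -0.05, and the median over all tested probes was -0.02.

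**Figure D4:**
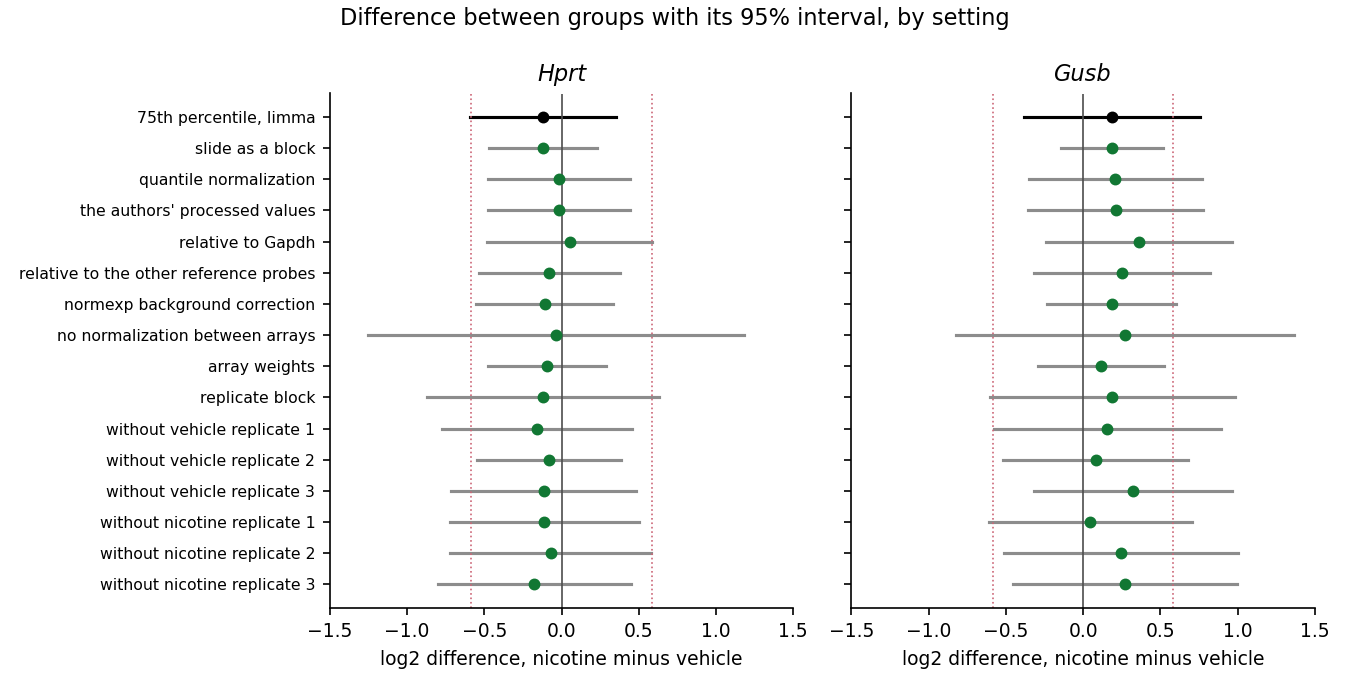
Log2 difference between nicotine and vehicle offspring (x axis, dots) with its 95% interval from limma (bars) for Hprt and Gusb under 16 settings (y axis); the solid line is at 0 and the dotted lines are at a 1.5-fold change in either direction. Every interval includes 0, the Gusb dots all lie above 0, and the Hprt dots lie below it except relative to Gapdh.

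The ratio of Hprt to Gusb within an array does not depend on dividing an array by a factor, though it does depend on the background correction and on normalization by rank. Its log2 value was 5.65, 5.96 and 5.40 in vehicle replicates 1 to 3 and 5.06, 5.38 and 5.65 in nicotine replicates 1 to 3. Only differences of this ratio between arrays can be read, since the probes differ. Its mean was 5.67 ± 0.28 (SD, n = 3) for the vehicle arrays and 5.36 ± 0.29 (SD, n = 3) for the nicotine arrays. The difference of -0.31 was slightly larger than the SD of either group, and the test did not pass (two-sided p = 0.2, exact permutation test). It was -0.16 without nicotine replicate 1 and also without vehicle replicate 2. It was -0.23 on the authors' processed values and -0.29 with normexp (two-sided p = 0.4 for both, exact permutation test), and the exact permutation within replicate numbers gave p = 0.5. Within slides it was -0.29 on slide 1 and -0.34 on slide 2 (exact permutation test within slides, two-sided p = 0.167, the smallest possible).

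The reference probes whose signal moved most like each gene over the 6 arrays were found by Pearson's r. For Hprt these were Gk, which encodes glycerol kinase, at 0.97, B2m, the light chain of MHC class I, at 0.72, and Tuba1b, an alpha-tubulin, at 0.72. For Gusb these were Hsp90ab1, a heat shock chaperone, at 0.97, Tbp, the TATA-binding protein, at 0.74, and Tfrc, the transferrin receptor, at 0.72. After the mean of each slide was removed, r was 0.99 for Hprt with Gk, 0.75 with B2m and 0.92 with Tuba1b, and 0.92 for Gusb with Hsp90ab1, 0.94 with Tbp and 0.48 with Tfrc. Within slides Actb, which encodes beta-actin, was more like Hprt than B2m was, at 0.82; it is named here after its values were seen. Hprt and Gusb themselves had an r of -0.42 over the arrays and -0.84 after the mean of each slide was removed. These values rest on 6 arrays that share their scaling and describe them only.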

How the data were processed

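The authors labelled hippocampal RNA with an Arraystar kit, scanned 6 one-colour arrays with an Agilent scanner and deposited the Feature Extraction 11.0.1.1 intensity of each spot, background-subtracted within the array and not normalized between arrays, together with median pixel and local background intensity and spot flags. They also deposited log2 values made with GeneSpring GX, whose normalization is not given in the sources used here. For both genes these lay close to quantile-normalized values, with group differences of -0.02 for Hprt and 0.21 for Gusb under either. The authors' values and quantile normalization are therefore not separate checks. Groups and replicate numbers were taken from the sample labels.

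From the intensities, log2(gProcessedSignal) minus the log2 of the 75th percentile over non-control spots of the array was computed. Control spots, 15 negative control probes and 21 to 46 outlier spots per array were left out, and spots of a probe were averaged. A probe was tested when 1 group or both had it well above background in all 3 arrays. Reference probes were named by accession through the RefSeq table of GRCm38.p6, 15 of 15 matching, and promoter sequences were copied from RefSeq. Nicotine and vehicle offspring were compared by lmFit and eBayes of limma 3.58.1 (R 4.3.3) and, for single values, by exact permutation of the arrays. The fit was also run on simulated data drawn without a slide effect, which does not test it under the slide differences found here. The members and lists were chosen with earlier results of these data known. Lists of purine and lysosomal genes could not be used, since 0 probes beside the reference probes had an accession in the gene table. The genes named are both members, Gapdh, and the 3 reference probes most correlated with each member, plus Actb, chosen after its values were seen. The number of arrays limits the precision.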

Additional observations from a re-analysis of the deposited data

How the results depend on the processing

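Neither Hprt nor Gusb passed an adjusted p under 0.05 between nicotine and vehicle offspring under any alternative fitted (smallest adjusted p 0.746 for Hprt and 0.470 for Gusb). Gusb was higher in nicotine offspring under all of them (0.05 to 0.36), and Hprt lower (-0.18 to -0.02) except relative to Gapdh (0.053). With single arrays left out the difference ran from -0.18 to -0.07 for Hprt, from 0.05 to 0.33 for Gusb, the low being without nicotine replicate 1 and the high without vehicle replicate 3, and from -0.45 to -0.16 for the ratio of Hprt to Gusb. The difference between slides for Hprt was 0.0074 with quantile normalization, -0.050 to 0.041 with single arrays left out, -0.27 with normexp and -1.15 without normalization between arrays (adjusted p = 0.00104 in limma). For Gusb it was 0.39 to 0.45 with single arrays left out, 0.23 with normexp and -0.72 without normalization.

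Both groups use the replicate numbers 1 to 3. The distance of each array from its group mean was taken probe by probe. Between the vehicle and nicotine arrays of a number it correlated at -0.65, 0.45 and -0.69 for numbers 1 to 3. Numbers 1 and 3 each had 1 array on slide 1 and 1 on slide 2, while number 2 had both on slide 1. Slide and number cannot be told apart in this check, so it cannot decide whether the numbers pair the arrays. Each number holds 1 array per group, so a replicate block cannot move the differences of -0.12 and 0.19. Under it the adjusted p was 1.00 in limma for both, and the probes at an unadjusted p under 0.05 fell from 1026 to 531. That count was 154 without normalization, 3135 with slide as a block, 2549 with array weights and 431 (without nicotine replicate 2) to 2040 (without vehicle replicate 3) with single arrays left out. The 8 probes at an adjusted p under 0.05 became 14 with quantile normalization, 13 without normalization, 4 with normexp, 14 on the authors' processed values, 19 with slide as a block, 16 on slide 1 alone, 45 with array weights and 5 (without vehicle replicate 1) to 17 (without vehicle replicate 3) with single arrays left out. They became 0 in limma over probes well above background on all 6 arrays, with 813 at an unadjusted p under 0.05, and 0 by the methods' t-test, with 1311. The causes were not tested. Chosen after seeing the data was the permutation within slides for each single gene, but not for the ratio. So was slide as a block on the authors' processed values (18 probes at an adjusted p under 0.05). Slide as a block with vehicle replicate 2 left out (329) was also chosen then. The ratio's blocks were run as permutations.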
